A study of Mus musculus with 18 samples.

Results

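DN1e is a population of early thymocytes, the cells that develop into T cells in the thymus, and its 3 RNA-seq libraries were compared with the 15 libraries of 6 other thymocyte populations, so that 3 of 18 libraries make up DN1e. Every library was made from thymus cells of 10-day-old C57BL/6 mice, and the labels name no difference in genotype or treatment. The other populations are DN4, DN2 and DN1 ckit+, with 3 libraries each, and DN1ab, DN1d and ImmV2, with 2 each. Roughly 10000 cells were sorted per subset, and libraries were built from 1 ng of amplified cDNA. No source used here spells out ImmV2. Replicates are called biological in the series' design, but no label ties a library to an animal, so p-values reflect only how far these libraries differ, in part perhaps for technical reasons.

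Double-negative (DN) thymocytes lack the coreceptors CD4 and CD8 and are ordered into stages from DN1 to DN4. DN1 is a mixed stage: it holds the multipotent progenitors that carry the receptor Kit, and further fractions that are told apart by surface Kit and CD24, of which DN1e is classically low in both. Progenitors at this stage can still give rise to myeloid, dendritic and innate lymphoid cells, and these fates are marked by Fc receptor adaptors, lysozyme, lysosomal proteases and the transcriptional inhibitor Id2.

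All 3 DN1e libraries were above the 15 others in 267 of the 24525 genes tested (1.09%) and below all of them in 145 (0.591%). Levels are given in FPKM, a fragment count scaled to transcript length and library size, where 0.01 FPKM is the lowest value in the table. Being listed at the lowest value does not show absence, because genes used by every cell are found there too: Actb, the gene of cytoplasmic actin, was at 0.01, 0.01 and 0.0163 FPKM in DN1e. In other populations of 3 libraries the same rule gave 93 higher and 16 lower genes for DN1 ckit+, 43 and 10 for DN2, and 101 and 26 for DN4. These counts are a description with no test.

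The libraries were checked as far as the files allow. Between 34.8% and 53.6% of rows were at the lowest value, with 39.1% to 42.0% in DN1e. Of the summed FPKM, 75.4% to 82.3% lay in the 10 highest rows. Across genes, Spearman's correlation was 0.268 to 0.276 for the 3 pairs of DN1e libraries and 0.161 to 0.235 for the 45 pairs of a DN1e with another library. The depth is unknown, since the table holds no counts. In bulk libraries, fewer cells of a type and less RNA per cell cannot be told apart.

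As sequence context for the markers, the 250 bases before the RefSeq start site of the marker genes Fcer1g, Lyz2 and Id2 are printed with those of Tlr8 and Clec7a, which were added after matches had been seen. They are from RefSeq on GRCm38.p6, a newer build than that of the files. Capitals mark matches on either strand to GAGGAA, to CACGTG, an E-box, and to TTGCNNAA, a core of C/EBP family factors. GAGGAA is a purine-rich site that extends the shorter core GGAA of ETS family factors.
Fcer1g (chr1:171234350-171234599, minus strand): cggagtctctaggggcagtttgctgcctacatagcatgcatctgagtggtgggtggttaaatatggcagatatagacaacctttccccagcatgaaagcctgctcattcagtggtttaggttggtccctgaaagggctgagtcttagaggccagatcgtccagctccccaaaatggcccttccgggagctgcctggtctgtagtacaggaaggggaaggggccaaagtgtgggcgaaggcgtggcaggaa
Lyz2 (chr10:117282273-117282522, minus strand): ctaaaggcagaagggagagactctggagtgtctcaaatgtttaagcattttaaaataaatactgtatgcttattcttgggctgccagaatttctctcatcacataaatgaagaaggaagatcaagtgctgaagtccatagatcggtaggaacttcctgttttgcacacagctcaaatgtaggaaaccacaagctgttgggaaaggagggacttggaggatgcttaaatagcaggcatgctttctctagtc
Id2 (chr12:25096093-25096342, minus strand): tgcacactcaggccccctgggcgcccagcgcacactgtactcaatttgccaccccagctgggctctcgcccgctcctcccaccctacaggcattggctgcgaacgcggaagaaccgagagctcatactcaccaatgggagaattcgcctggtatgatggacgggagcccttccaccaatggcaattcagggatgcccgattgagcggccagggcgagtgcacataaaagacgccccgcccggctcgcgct
Tlr8 (chrX:167264330-167264579, minus strand): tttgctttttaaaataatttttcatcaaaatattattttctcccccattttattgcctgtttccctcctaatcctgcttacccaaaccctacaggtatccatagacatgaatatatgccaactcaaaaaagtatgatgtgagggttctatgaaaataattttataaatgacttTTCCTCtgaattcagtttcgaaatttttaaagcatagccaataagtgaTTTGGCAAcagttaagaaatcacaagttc
Clec7a (chr6:129472780-129473029, minus strand): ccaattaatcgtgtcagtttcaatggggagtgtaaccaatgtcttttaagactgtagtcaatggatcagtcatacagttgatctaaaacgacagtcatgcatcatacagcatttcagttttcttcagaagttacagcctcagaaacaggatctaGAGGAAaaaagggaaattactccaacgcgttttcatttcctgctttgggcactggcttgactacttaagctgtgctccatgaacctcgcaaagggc
Tlr8 held 1 GAGGAA and 1 TTGCNNAA match, and Clec7a held 1 GAGGAA match. Fcer1g, Lyz2 and Id2 held 0 matches to the 3 motifs, which says only that these letters are not in this window. The shorter GGAA, which is not marked, does occur in the windows of Fcer1g, Lyz2 and Id2. A promoter was matched by symbol for 141 of the 267 higher genes and 68 of the 145 lower genes. GAGGAA was found in 26.2% of the higher genes' windows, against 23.0% of those of all genes tested and 23.1% of all promoters. CACGTG was found in 7.80% against 7.42% and 6.05%, and TTGCNNAA in 10.6% against 7.70% and 9.55%. In the lower genes' windows the shares were 17.6% for GAGGAA, 1.47% for CACGTG and 8.82% for TTGCNNAA. A match is a description, not a binding site.

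The 3 genes taken as markers of DN1e, with earlier results of these data known, were high in each of its libraries. Fcer1g encodes the signalling adaptor of Fc receptors. It was at 700, 278 and 371 FPKM in DN1e, and at 0.01 FPKM at the lowest, 1.62 FPKM at the median and 37.3 FPKM at the highest of the 15 others. DN1ab, at 24.7 and 35.8 FPKM, and DN1d, at 37.3 and 20.3 FPKM, came next, and both ImmV2 libraries were listed at the lowest value. The log2 difference between DN1e and the mean of the 6 other populations, on the log2(FPKM + 1) scale, was 6.51 ± 0.77 SE (limma adjusted p = 0.000328).

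**Figure D1:**
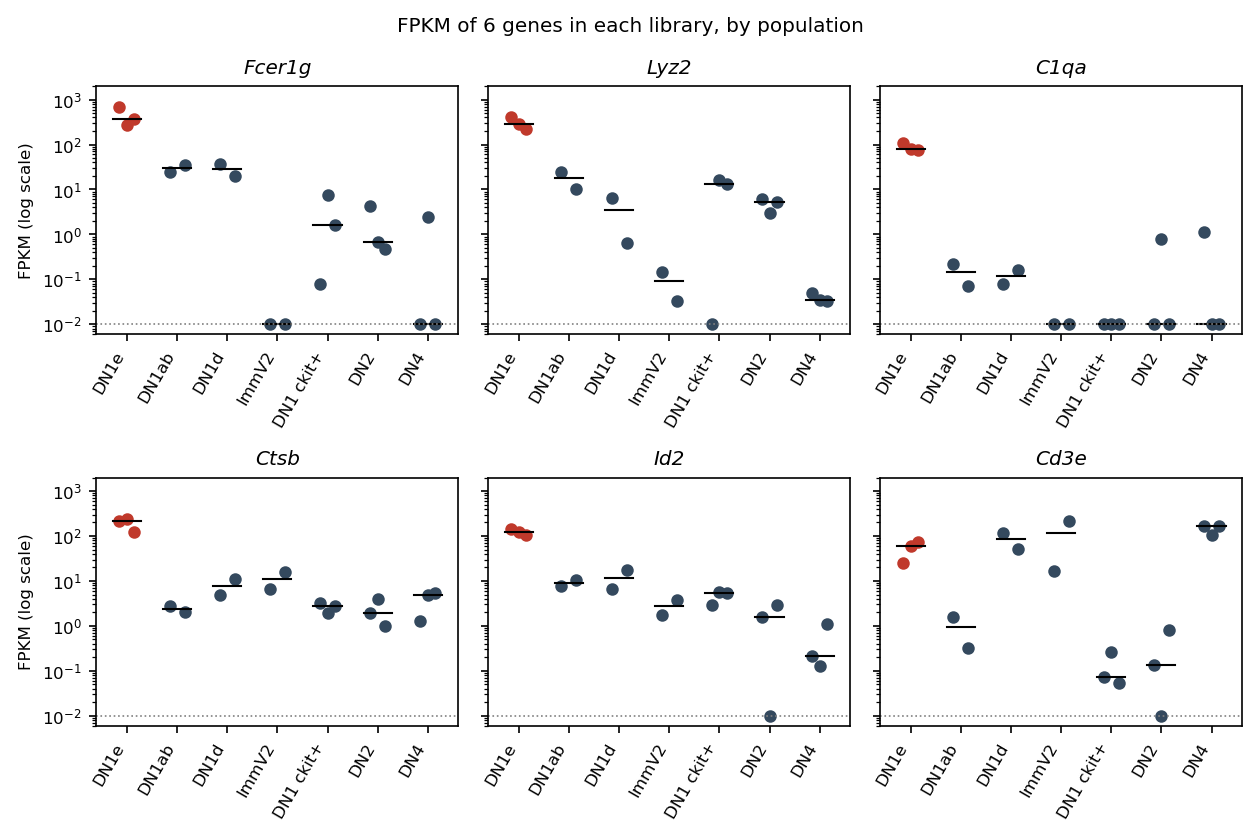
FPKM on a log axis of 6 genes in each library, by population, with DN1e in red, a line at each population's median and a dotted line at 0.01 FPKM, the lowest value. The DN1e points of Fcer1g, Lyz2, C1qa, Ctsb and Id2 lie above all others, whereas those of Cd3e, at 25 to 72.8 FPKM, lie among those of DN1d, ImmV2 and DN4.

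The lysozyme gene Lyz2, active in macrophages and granulocytes, stood at 406, 290 and 226 FPKM in DN1e. The 15 others ran from 0.01 FPKM through a median of 3.00 FPKM to 24.9 FPKM, in DN1ab 1. The groups did not overlap, and the log2 difference was 6.35 ± 0.84 SE (limma adjusted p = 0.000657). Id2, which blocks E-protein transcription factors and is needed by innate lymphoid cells, was at 140, 122 and 107 FPKM. Its other libraries ran from 0.01 FPKM through 2.92 FPKM to 17.3 FPKM, in DN1d 2. The log2 difference of Id2 was 4.81 ± 0.67 SE (limma adjusted p = 0.00101), and with the values as deposited its call ended (adjusted p = 0.0717). Against DN1ab taken by itself none of the 3 markers was called, with limma adjusted p = 0.201 for Fcer1g, 0.189 for Lyz2 and 0.132 for Id2. Against DN1d, Lyz2 was called (adjusted p = 0.0199) and Fcer1g and Id2 were not (0.181 and 0.171), and all 3 were called against each of ImmV2, DN1 ckit+, DN2 and DN4. These 6 contrasts share the DN1e libraries. Over all genes tested, the share called higher and lower in DN1e was 0.249% and 0.33% against DN1ab, 0.273% and 0.326% against DN1d, 0.302% and 0.29% against ImmV2, 0.44% and 0.253% against DN1 ckit+, 0.449% and 0.135% against DN2, and 0.575% and 0.285% against DN4.

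Of all genes tested, limma called 294 higher (1.20%) and 36 lower (0.147%) in DN1e, at a Benjamini-Hochberg adjusted p under 0.05 and a log2 difference of at least 1. With the values as deposited, the split was 167 higher and 120 lower, or 58.2% higher against 89.1%. It was 258 and 90 (74.1% higher) with a pseudocount of 0.1 FPKM and 263 and 80 (76.7%) with no filter on low values. The median log2 difference of all genes tested was -0.20. Of the genes that did not overlap, 181 of 267 higher and 15 of 145 lower were also called. The rule and the test read the same values, so these shares lend nothing to each other. Another 113 higher and 21 lower calls were genes whose libraries overlap.

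**Figure D2:**
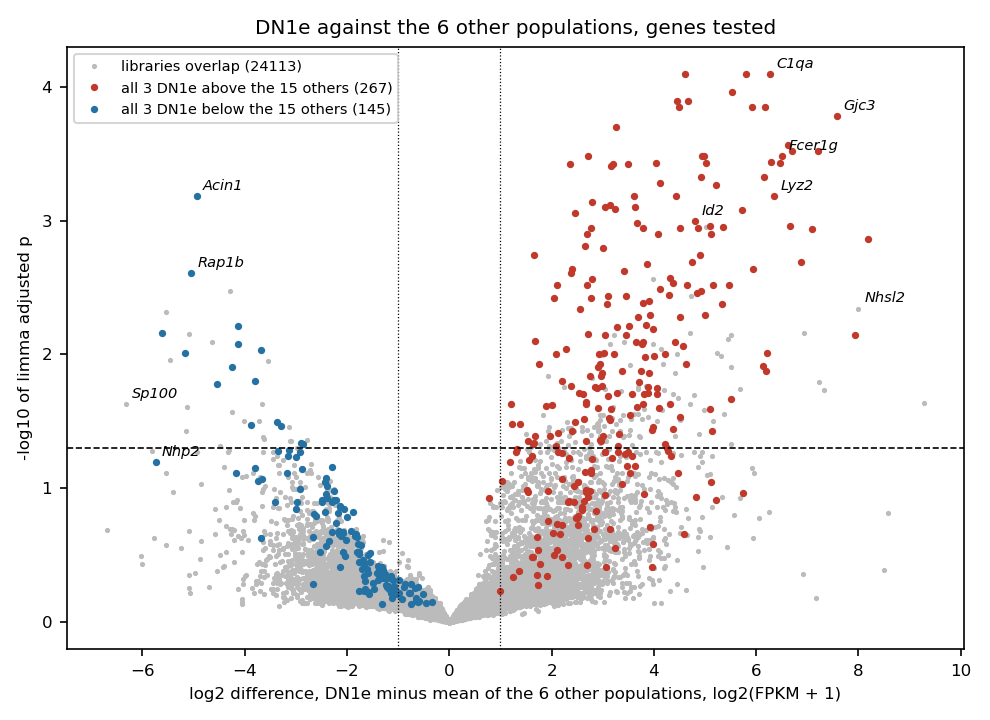
Log2 difference between DN1e and the mean of the 6 other populations against -log10 of the limma adjusted p, for the 24525 genes tested, with the call thresholds as lines. The 267 genes in red, such as C1qa and Gjc3, have all 3 DN1e libraries above the 15 others, and the 145 in blue, such as Acin1, have all 3 below.

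Among the 267 higher genes, 139 were at 10 FPKM or more in every DN1e library, and 73 were under 1 FPKM in all 15 others. Those 73 passed the filter of 1 FPKM in 2 libraries only through DN1e. So did members with 14 of the 15 others under 1 FPKM, such as C1qa and Det1. Calls of all such genes are therefore not independent of how they entered the test. The lowest and highest DN1e libraries differed by a median ratio of 2.52, with 102 genes within 2-fold and 51 over 10-fold apart. The highest of the other libraries was in DN1d for 55 genes, DN1ab for 49, DN2 for 46, DN1 ckit+ for 43, DN4 for 40 and ImmV2 for 34. By population median the highest was DN1ab for 76 genes, DN1d for 63, ImmV2 for 53, DN1 ckit+ for 40, DN2 for 19 and DN4 for 16. The 6 other populations differed among themselves in 1 of the 267 genes by limma's F test (adjusted p under 0.05), which is 0.375% against 0.905% of all genes tested. That test compares no DN1e level, but the rule read the same 15 libraries and capped their values. With 73 of the genes under 1 FPKM in all 15, the low share partly follows from the rule.

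C1qa, a chain of complement component C1q that macrophages make, was at 108, 79.9 and 74.8 FPKM in DN1e and at 1.12 FPKM or less in all others, 9 of which were listed at the lowest value. Its log2 difference was 6.28 ± 0.57 SE (limma adjusted p = 8.05e-05). Its partner chains, chosen after their values were seen, did not share the pattern. C1qb was at 0.01, 409 and 325 FPKM and C1qc at 431, 23.2 and 5.35 FPKM in DN1e, and neither was called (limma adjusted p = 0.0783 and 0.464). DN1d 1 had 543 FPKM of C1qc, above every DN1e library.

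**Figure D3:**
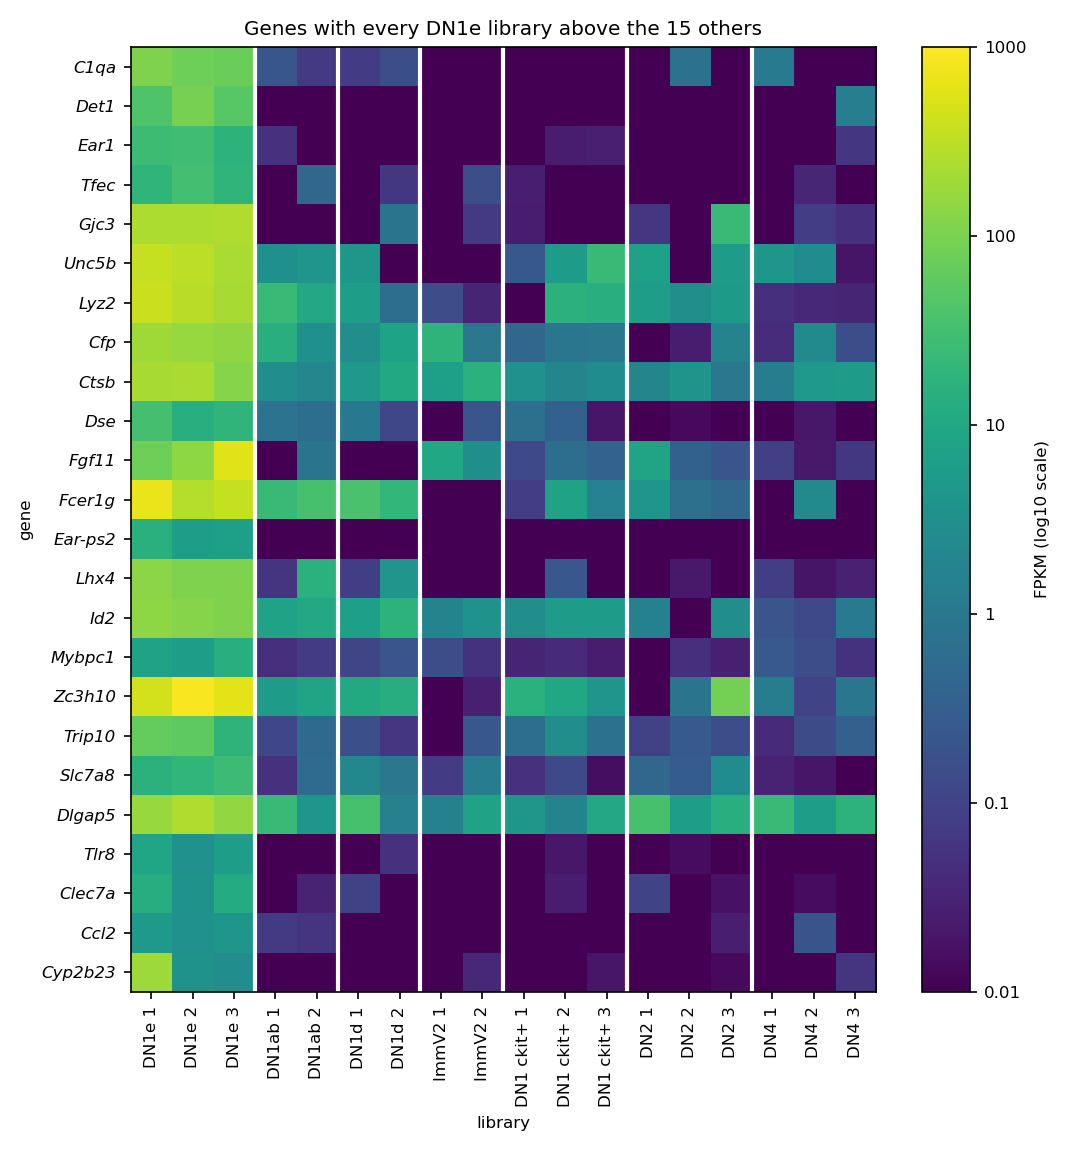
FPKM on a log10 colour scale of the 24 higher genes with the largest gap between DN1e and the other libraries, with libraries in columns and white lines between populations. The 3 DN1e columns at the left are the brightest in each row, and single bright cells, such as Gjc3 in DN2 3 at 24.7 FPKM, appear elsewhere.

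Tlr8, Clec7a, Cfp and Ccl2 were among the 24 genes with the largest gaps. Tlr8, an endosomal toll-like receptor, was at 8.53, 3.33 and 6.03 FPKM in DN1e and at 0.0508 FPKM or less elsewhere (log2 difference 2.71 ± 0.32 SE, limma adjusted p = 0.000328). Clec7a, the beta-glucan receptor Dectin-1, was at 13.3, 3.52 and 11.9 FPKM against at most 0.104 FPKM (3.20 ± 0.39 SE, adjusted p = 0.000374). Cfp, which encodes the complement regulator properdin, was at 197, 166 and 149 FPKM against at most 17.6 FPKM, in ImmV2 1. Ccl2, a chemokine that draws monocytes, was at 5.06, 3.42 and 4.52 FPKM against at most 0.197 FPKM. All 4 were called and did not overlap, and the call of Ccl2 ended with a pseudocount of 5 FPKM. Tlr8, Clec7a and Ccl2 passed the filter only through DN1e.

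Ear1, an eosinophil-associated ribonuclease gene, was at 26.6, 29.4 and 17.4 FPKM against at most 0.0611 FPKM. Ear-ps2, a pseudogene of the same family, was at 15.1, 6.35 and 6.54 FPKM, while all 15 others had it at the lowest value. The family's members are near-identical in sequence, so how reads were split among them is uncertain. Tfec, a transcription factor of the MiT family found in macrophages, was at 18.4, 31.7 and 18.6 FPKM against at most 0.454 FPKM (log2 difference 4.45 ± 0.45 SE, limma adjusted p = 0.000127). Ear1, Ear-ps2 and Tfec passed the filter only through DN1e.

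Other genes with the largest gaps belong to none of the gene lists. Det1, a component of an ubiquitin ligase complex, was at 41.4, 93.4 and 51.3 FPKM, and 14 of 15 other libraries had it at the lowest value. Gjc3, a gap junction protein, was at 242, 240 and 254 FPKM, with 24.7 FPKM in DN2 3 and 0.828 FPKM or less in the 14 others. Unc5b, a netrin receptor, was at 369, 317 and 234 FPKM against at most 25.0 FPKM, and its call ended with the values as deposited (limma adjusted p = 0.051). Zc3h10, a zinc finger protein, had the highest DN1e median of the 24, at 446, 878 and 623 FPKM, with 88.2 FPKM in DN2 3. Lhx4, a homeobox factor, was at 134, 110 and 106 FPKM against at most 15.6 FPKM, in DN1ab 2. Cyp2b23 shows how uneven a member can be, at 187, 3.72 and 2.83 FPKM in DN1e against at most 0.0561 FPKM, a call that ended with a pseudocount of 5 FPKM. The remaining genes of the 24, Dse, Fgf11, Mybpc1, Trip10, Slc7a8 and Dlgap5, were called too, Slc7a8 not with the values as deposited (limma adjusted p = 0.0519). Dlgap5, a mitotic spindle protein, lost its call without DN1e 1, 2 or 3 (limma adjusted p up to 0.0892). Det1, Gjc3, Cyp2b23, Dse, Mybpc1 and Trip10 passed the filter only through DN1e.

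Lysosomal genes held the most calls of the 27 gene lists examined, with 4 of 17 tested called higher, where 1.20% of all genes tested were, and 0 lower. Their median log2 difference was 1.07 against -0.20 for all genes tested. The summed level of the list overlapped, at 519 to 1300 FPKM in DN1e and 41.2 to 2780 FPKM elsewhere, with the highest in DN2 1. Ctsb, the protease cathepsin B, was at 219, 233 and 124 FPKM, and the others ran from 0.982 FPKM through 3.31 FPKM to 15.5 FPKM (log2 difference 5.22 ± 0.67 SE, limma adjusted p = 0.000541). Ctss, cathepsin S, which trims the invariant chain of MHC class II, was at 137, 151 and 60.3 FPKM against at most 18.4 FPKM (4.74 ± 0.72 SE, adjusted p = 0.00203). Cd63, a tetraspanin of late endosomes, was at 82.8, 84.9 and 25.1 FPKM against at most 6.97 FPKM. These 3 did not overlap, whereas Hexa, a hexosaminidase chain, was at 41.8, 106 and 46.3 FPKM with 74.2 FPKM in DN2 3. The call of Hexa rests on thin margins: it ended in 15 of the 18 fits that left out 1 library, all but those without DN2 2, DN2 3 or DN4 2 (limma adjusted p up to 0.182). Ctsd, cathepsin D, was at 2.56, 389 and 0.105 FPKM and was not called.

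**Figure D4:**
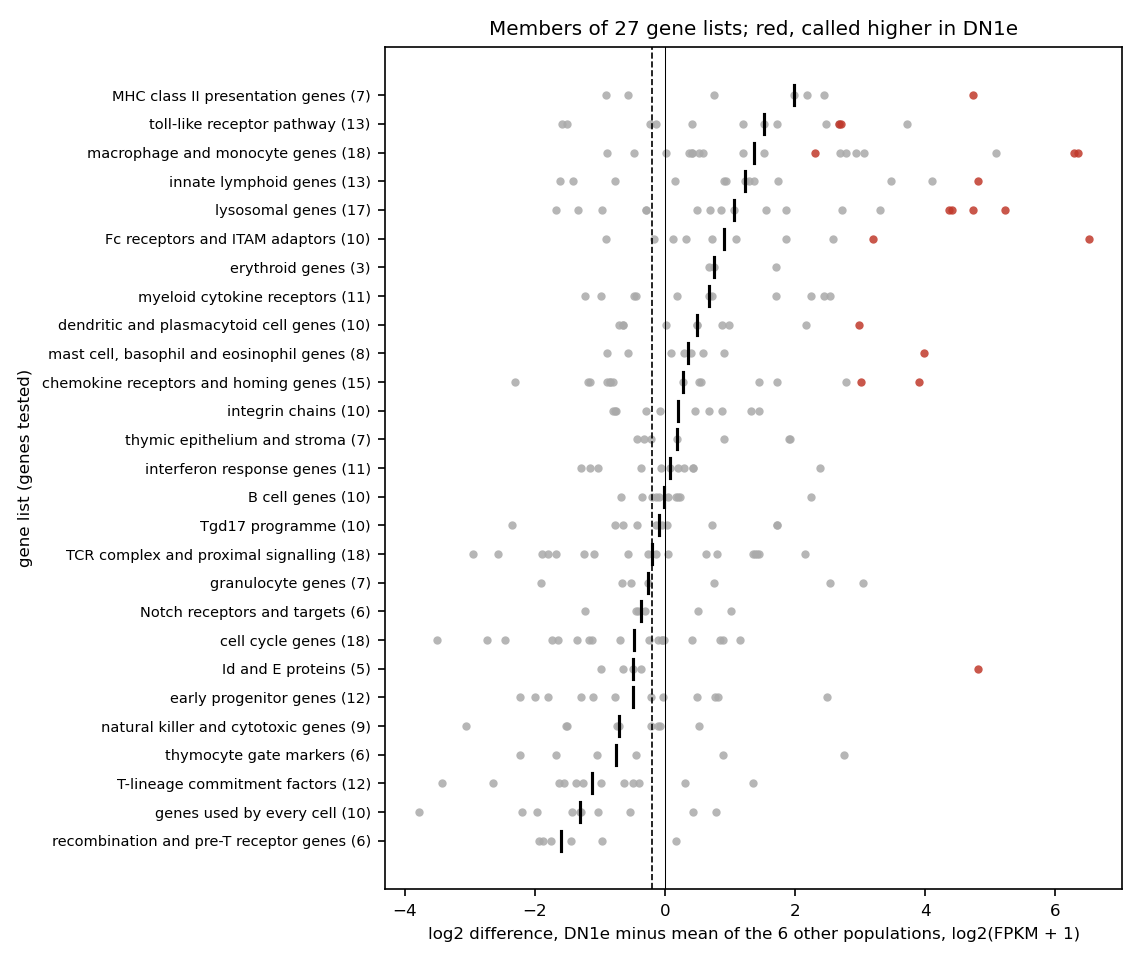
Log2 difference between DN1e and the mean of the 6 other populations for the tested members of 27 gene lists, with called genes in red, list medians as bars and the median of all genes tested (-0.20) as a dashed line. Red points occur in 10 lists and all lie to the right, and the MHC class II list has the highest median, 1.98, with 1 of 7 called.

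Of 18 macrophage and monocyte genes tested, 3 were called higher, namely Lyz2, C1qa and the apoptotic cell receptor Mertk, and 0 lower. Over all genes tested, 1.20% were called higher and 0.147% lower. C1qa passed the filter only through DN1e, since 14 of the 15 others were under 1 FPKM. Lyz2 is a marker taken with earlier results of these data known. Neither call is independent support for the list. The list's median was 1.37, with 16 of 18 log2 differences above 0. Mertk was at 1.51, 15.2 and 4.08 FPKM and overlapped DN1ab 1, at 2.08 FPKM, and its call ended in 13 of the 18 fits without 1 library, all but those without DN1ab 1, DN1d 2, DN1e 1, DN1e 3 or ImmV2 1 (limma adjusted p up to 0.109). Of the list's 20 members, 3 were under 1 FPKM in every DN1e library. Csf1r, the receptor for macrophage colony-stimulating factor, was at 0.01, 0.01 and 0.0837 FPKM, Emr1, which encodes F4/80, at 0.0262 FPKM or less, and Cx3cr1, the fractalkine receptor, at 0.059 FPKM or less. Cd14 was at 0.0279, 4.67 and 0.01 FPKM. The summed level of the list was 726 to 1080 FPKM in DN1e and 3.59 to 568 FPKM elsewhere. Tyrobp, an adaptor akin to Fcer1g, was at 22, 42.3 and 4.88 FPKM and overlapped DN1ab, with 43.5 FPKM in DN1ab 1 (adjusted p = 0.15).

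Other lists of innate and myeloid cells held up to 2 calls each, all higher. Over all genes tested, 1.20% were called higher and 0.147% lower. Fc receptors and their adaptors had 2 of 10 called, Fcer1g and Clec7a, with a median of 0.91. The toll-like receptor pathway had 2 of 13, Tlr8 and Tlr1, with a median of 1.52. Tlr8 and Clec7a were under 1 FPKM in all 15 others, so they passed the filter only through DN1e. Fcer1g is a marker taken with earlier results of these data known. The calls of Fcer1g and Clec7a are thus not independent support for their list. Mast cell, basophil and eosinophil genes had 1 of 8, Ms4a2, the beta chain of the IgE receptor, at 23.4, 16.6 and 27.1 FPKM against at most 9.09 FPKM, in DN1d 2. The calls of Ms4a2, Tlr1, Ctss and Cxcr6 ended with the values as deposited (limma adjusted p = 0.0895, 0.128, 0.0508 and 0.088). Dendritic cell genes had 1 of 10, the transcription factor Batf3, at 10.4, 3.00 and 20.5 FPKM, which overlapped DN1ab 1 at 7 FPKM. With 14 of the 15 others under 1 FPKM, Batf3 too passed the filter only through DN1e. Of 7 granulocyte genes 0 were called, and their summed level was uneven, at 2.05 to 1190 FPKM in DN1e and 0.1 to 214 FPKM elsewhere. Csf3r, the receptor for granulocyte colony-stimulating factor, was at 1140, 1.87 and 0.0362 FPKM in DN1e, and the protease gene Prtn3 at 46.0, 0.01 and 41.3 FPKM. S100a9, a calcium-binding protein of neutrophils, was listed at the lowest value in every DN1e library.

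Innate lymphoid genes had 1 of 13 called, Id2, with a median of 1.23, where 1.20% of all genes tested were called higher and 0.147% lower. Id2 is a marker taken with earlier results of these data known, so its call is not independent support for the list. Il7r, the receptor for interleukin-7, did not overlap, at 29.1, 144 and 33.0 FPKM against at most 22.7 FPKM, but was not called (limma adjusted p = 0.0689). Of the chemokine receptors, Cxcr6 was called and did not overlap. It was at 32.2, 22.8 and 29.6 FPKM against at most 11.8 FPKM, in DN1d 2 (log2 difference 3.91 ± 0.65 SE, limma adjusted p = 0.00399). Ccr2, the receptor for Ccl2, did not overlap either, at 13.2, 13.8 and 12.2 FPKM against at most 6.73 FPKM, but was not called (adjusted p = 0.0603). Natural killer and cytotoxic genes had 0 of 9 called and a summed level of 1.10 to 9.29 FPKM in DN1e, below the 14.1 to 500 FPKM of the others. Klrc3, a killer cell lectin-like receptor outside the list, was picked after its values were seen. It was called higher, at 11.2, 5.89 and 40.3 FPKM against at most 1.56 FPKM, in DN1 ckit+ 3 (log2 difference 3.80 ± 0.54 SE, limma adjusted p = 0.00113). Klrc3 passed the filter only through DN1e.

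The lists of T-lineage genes held 0 calls in DN1e. T-lineage commitment factors had 0 of 12 called, where 0.147% of all genes tested were called lower, and a median of -1.12. Recombination and pre-T receptor genes had the lowest median of the 27 lists, -1.59, with 5 of 6 members negative and 0 called. The median of the list of genes used by every cell, -1.30, lay between those of these T-lineage lists. It had 8 of 10 members negative and 0 called. Bcl11b, needed for T-lineage commitment, was at 0.905, 1.22 and 6.99 FPKM, and Ets1 was listed at the lowest value in all 3 libraries (limma adjusted p = 0.101). The T cell receptor complex and its signalling genes had 0 of 18 called and a median of -0.19. Its chain Cd3e was at 25, 60.9 and 72.8 FPKM and Cd3d at 18.8, 9.59 and 22.5 FPKM. Outside the lists, and picked after its values were seen, Trbv31, a variable segment of the T cell receptor beta chain, was at 10.7, 85.8 and 110 FPKM in DN1e against at most 8.42 FPKM, in ImmV2 2, and was called higher (log2 difference 4.93 ± 0.80 SE, limma adjusted p = 0.00334). B cell genes had 0 of 10 called with a median of -0.02, and thymic epithelium and stroma genes had 0 of 7 with a median of 0.19. The summed level was 15.6 to 239 FPKM in DN1e and 4.36 to 1290 FPKM elsewhere for the B cell list, 49.2 to 71.5 FPKM and 16.1 to 100 FPKM for epithelium and stroma, and 19.4 to 45.0 FPKM and 0.331 to 50 FPKM for erythroid genes. The part of such cells, or of macrophages, in the results was not tested.

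The surface markers used to define thymocyte fractions were uneven in RNA. Kit was at 0.66, 0.527 and 12.2 FPKM in DN1e, below the median of DN1 ckit+ at 95.6 FPKM. Cd24a was at 347, 0.01 and 354 FPKM, and was not called (limma adjusted p = 0.675). Its DN1e median was the highest of the 7 populations, above 234 FPKM in ImmV2, whose libraries were at 0.01 and 468 FPKM. DN1e 1 and DN1e 3 were thus high in this RNA, whereas the classical definition of DN1e as low in CD24 concerns surface protein, which was not measured. Cd44 was at 0.01, 0.0701 and 0.01 FPKM. Of the 6 gate markers, which also include Il2ra, Cd4 and Cd8a, 0 were called.

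The 145 genes lower in DN1e were mostly near the floor of the table: 109 were under 1 FPKM in all DN1e libraries and 16 were listed at the lowest value in all 3. In 55 of them all 15 others were at 1 FPKM or more. Acin1, a nuclear protein of RNA splicing and apoptotic chromatin condensation, was at 0.14, 0.0379 and 0.0456 FPKM, while the others ran from 17.8 FPKM through 31.4 FPKM to 55.7 FPKM (log2 difference -4.94 ± 0.65 SE, limma adjusted p = 0.000657). Rap1b, a small GTPase of integrin activation, was at 0.01, 0.01 and 0.562 FPKM, while the others ran from 13.7 FPKM through 31.9 FPKM to 115 FPKM (-5.05 ± 0.78 SE, adjusted p = 0.00246). For both genes the groups lay far apart, with the lowest other library above 10 FPKM.

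**Figure D5:**
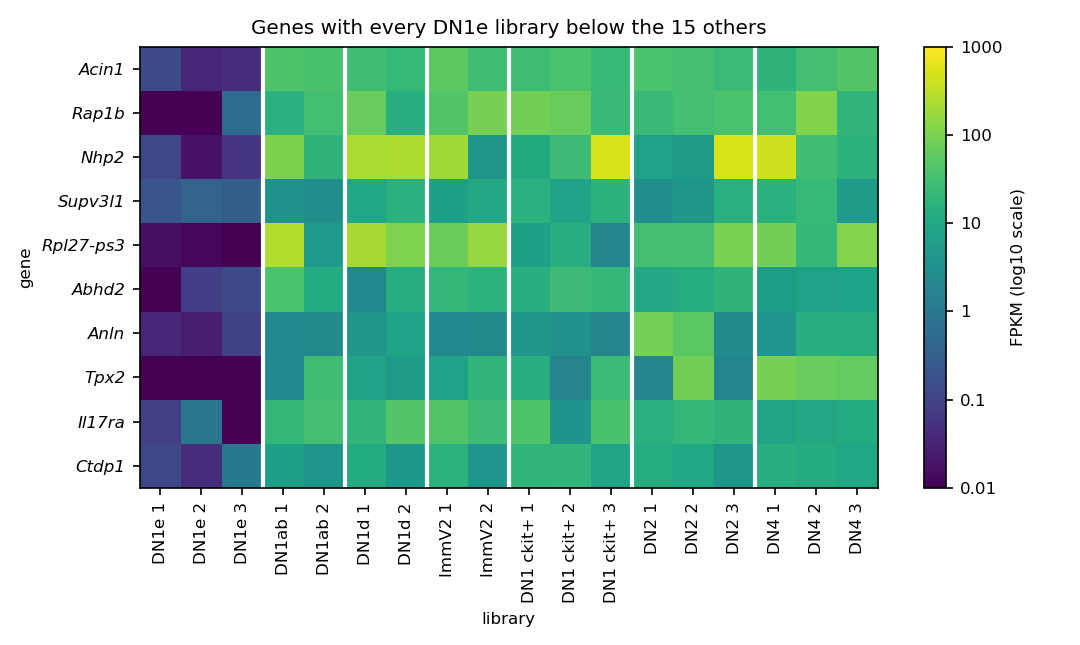
FPKM on a log10 colour scale of the 10 lower genes with the largest gap, with libraries in columns and white lines between populations. The 3 DN1e columns are darkest, and all 15 other libraries are at 1.75 FPKM or more in each row.

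Il17ra, the receptor chain for interleukin-17, was at 0.0903, 0.912 and 0.01 FPKM against at least 3.94 FPKM (log2 difference -4.13 ± 0.75 SE, limma adjusted p = 0.00843). Abhd2, a hydrolase, and the ribosomal pseudogene Rpl27-ps3 were called too, until a pseudocount of 5 FPKM was used. Reads of a ribosomal pseudogene can be shared with its parent gene, so its level is uncertain. Supv3l1, a mitochondrial RNA helicase, and Ctdp1, a phosphatase of RNA polymerase II, were called by a narrow margin (adjusted p = 0.0471 and 0.0461). Leaving out 1 library ended the call of Supv3l1 in 17 of 18 fits, all but that without DN2 1, and that of Ctdp1 in 16, all but those without DN1d 2 or ImmV2 2. Nhp2, Anln and Tpx2 did not overlap but were not called (adjusted p = 0.0641, 0.157 and 0.0885). The mitotic gene Tpx2 was listed at the lowest value in every DN1e library.

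Around the limit of the rule, values were as follows. Just inside were Mylk2, at 0.0202, 4.37 and 13.2 FPKM, Dusp3, at 0.383, 22.1 and 16.6 FPKM, and Tmem174, at 135, 16.5 and 73.3 FPKM. The highest other value of Tmem174 was 16.4 FPKM. For Mylk2 it was 0.0202 FPKM, in DN4 2, and for Dusp3 0.383 FPKM, in DN4 1. As rounded here, both equal the lowest DN1e value of the gene. Just outside were Olfr513, at 0.01, 1.59 and 1.70 FPKM, S100a6, at 7.31, 37.5 and 0.01 FPKM, and Ighg1, at 4.04, 0.01 and 3.73 FPKM, each listed at the lowest value in all others. A gene can thus miss the rule through 1 DN1e library at the lowest value. Of the called genes that overlap, Nhsl2 had the highest log2 difference among those named, 7.99 ± 1.34 SE, at 375, 421 and 435 FPKM in DN1e, with 750 FPKM in DN1 ckit+ 2 and 0.653 FPKM or less in the 14 others. Nhsl2 passed the filter only through DN1e. Fbxo48 and Plcxd3 were high in DN1e 1 and 2 but at 5.76 and 6.32 FPKM in DN1e 3, and both calls ended without DN1e 1 or without DN1e 2. The call of Trim50 ended without DN1e 3. Sp100, a nuclear body protein, was listed at the lowest value in all 3 DN1e libraries and in 1 other, and its call ended without DN1e 1, 2 or 3.

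Further members were picked after their values were seen. P2ry12, a purinergic receptor of microglia and platelets, was at 51.3, 36.4 and 37.2 FPKM against at most 10.3 FPKM (log2 difference 4.87 ± 0.69 SE, limma adjusted p = 0.00113). Csf1, macrophage colony-stimulating factor, was at 12.6, 11.3 and 20.1 FPKM, with 9.13 FPKM in DN2 2 and 0.105 FPKM or less in the 14 others. Hmox1, which degrades haem, was at 10.8, 2.80 and 10.5 FPKM against at most 0.683 FPKM, and its call ended with the values as deposited (adjusted p = 0.102). Bcl2l1, a survival factor, was at 17, 17.5 and 8.73 FPKM against at most 2.25 FPKM. The hairpin gene Mirlet7i was at 27.6, 36.2 and 449 FPKM against at most 3.81 FPKM (6.15 ± 0.78 SE, adjusted p = 0.000475). Csf1, Hmox1, Bcl2l1 and Mirlet7i passed the filter only through DN1e. The mature miRNA was not measured; its sequence from RefSeq is printed with the seed, bases 2 to 8, in capitals.
mmu-let-7i-5p: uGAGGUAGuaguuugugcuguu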

How the data were processed

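RNA-seq libraries of 18 samples from 7 thymocyte populations were analysed from 1 table. The authors deposited log2 FPKM for 34082 gene symbols. Per the submitters' processing notes, the aligner was Bowtie and the build mm8; the sources used here do not give its version, the annotation, the quantifier or the normalization. High values appear to share a scale by rank, and 25 symbols had been turned into dates. There are no counts, so depth and counting error are unknown.

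Values were converted to FPKM and tested as log2(FPKM + 1), a scale that understates changes of low genes, keeping the 24525 genes that reached 1 FPKM in 2 or more libraries. The DN1e libraries counted towards this filter, so a gene could pass through them alone. The lmFit, contrasts.fit and trended eBayes functions of limma 3.58.1 (R 4.3.3) were used to fit 7 population means, and DN1e was compared with the equally weighted mean of the 6 others, two-sided. All genes tested entered the Benjamini-Hochberg adjustment. A call needed adjusted p under 0.05 and an absolute log2 difference of at least 1. In data simulated for this comparison over 24525 genes, 51 of 100 genes changed by 4 on the log2 scale were called. Of 100 genes changed by 8, 97 were called, and there were 8 calls among unchanged genes. Whether these counts carry over to the table, where 34.8% to 53.6% of rows per library were at the lowest value, was not tested.

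The genes, lists and tests were chosen with earlier results of these data known. The text names the 24 higher and 10 lower genes with the largest gap between DN1e and the other libraries (passing over clone, Gm, LOC, small RNA and date names), the markers, up to 4 called or non-overlapping members per list, 3 genes on either side of the rule's limit and the 5 overlapping calls of largest difference. Uncalled list members given as values, and 41 further genes considered for naming, were picked after their values were seen. Alternatives were other pseudocounts, filters and weights, quantile normalization, a replicate block and leaving out each library. Some genes are not reported here.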

Additional observations from a re-analysis of the deposited data

How the results depend on the processing

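The number of lower calls moved most with the scale: from 36 it went to 90 with a pseudocount of 0.1 FPKM, 12 with 5 FPKM, 120 with the values as deposited, 80 with no filter and 21 with a replicate block. Beside these, 258, 244, 167, 263 and 231 genes were called higher, against 294. With at least 5 FPKM in 3 libraries 150 were higher, and with DN1e set against the 15 libraries as 1 group 488. Quantile normalization gave 300 and 37. Without 1 library, calls ran from 217 to 437 higher and from 22 to 40 lower, with 22 lower without DN1e 1, 23 without DN1 ckit+ 1, and 437 higher without DN1e 3. Non-overlapping genes fell to 173 higher with the stricter filter, and to 97 higher and 14 lower with a gap of at least 1. Without 1 library they ran from 269 to 624 higher and from 151 to 301 lower, since fewer libraries make the rule easier to meet.

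Of the 48 called genes named by the rule, 25 were called under every alternative that tested them. A further 23 lost the call under at least 1, 12 of them by leaving out 1 library, and 0 of the 48 changed direction. Where a gene failed an alternative's filter, no loss was counted. Dusp3, for example, was tested in 23 of 26 alternatives, and Tlr8 and Clec7a in 25. Of the 23 called genes among the 41 picked after their values were seen, 7 were called under every alternative that tested them. The other 16 were not, and 0 changed direction. Fcer1g, Lyz2 and C1qa were among those called under every alternative, and Id2 was not. Over both sets, 21 genes lost the call under the deposited scale, 20 under a pseudocount of 5 FPKM, 9 under the replicate block. No label says whether the replicate numbers pair the samples. Deviations of same-numbered libraries from their population means had a median correlation of -0.00228 (48 pairs), against 0.00159 for other pairs (90). Those pairs share libraries, and such values cannot decide whether same-numbered libraries share an animal or a sort. The cause of the changes in calls was not tested.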
